A study of Mus musculus with 8 samples.

Results

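The response of the liver to a high-fat diet (HFD) was described in mice whose hepatocytes had lost RORα, the retinoic acid receptor-related orphan receptor coded by Rora. The libraries were those of the RORα LKO mice, which carried the Alb-Cre transgene and 2 floxed Rora alleles (Alb-cre;RORa f/f in the labels). Their 2 HFD libraries were set against their 2 control diet (CD) libraries, so that 4 of the 8 libraries of the series carry the response. The genes described are those with FPKM (a read count scaled by transcript length and library size) above 1 in all 4 of these libraries, which were 10070 of the 38283 genes in the deposited table. By the same rule 10024 genes passed in the RORα f/f libraries. The 3 genes just inside the limit were Shank2, Cdc42ep2 and Klhl15, with lowest FPKM of 1.00024, 1.00114 and 1.00145, and Ccnj and Wdr90 lay just outside, with 0.999999 and 0.999932. A gene that is silent on one diet cannot be a member. There were 83 genes above 1 in both HFD LKO libraries and in neither CD LKO library, and 89 with the reverse pattern.

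The mice were males on a C57BL/6 background. LoxP sites lay around exons 4 and 5 of Rora, and the controls, RORα f/f littermates, carried the same floxed alleles without the Cre. Both genotypes received the CD or an HFD with 60% of its energy from fat for 10 weeks, starting at 8 weeks of age. Each group had 4 mice and 2 libraries, with 2 livers pooled in each library, so that the spread between libraries is a spread between pools. Alb-Cre is active in hepatocytes, and whether the other cells of the liver keep Rora was not measured here.

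RORα is a nuclear receptor that binds as a monomer to a short site preceded by an A/T-rich stretch and mostly activates transcription. In liver it is known for its place in the circadian clock, where it shares target sites with the repressors REV-ERBα and REV-ERBβ, and for its links to lipid and glucose metabolism. Dietary fat enters the same organ as ligands of the PPAR receptors and as substrate for β-oxidation, while sterols and unsaturated fat restrain the SREBP factors, which drive the synthesis of sterols and fatty acids.

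The deposited values reflect these labels only in part. Rora, on chromosome 9 (68653786 to 69388246, GRCm38, plus strand), had FPKM of 7.96 and 8.18 in the CD LKO libraries and 7.30 and 8.02 in the HFD LKO libraries. In the f/f libraries it had 8.85 and 8.59 on the CD and 7.56 and 7.86 on the HFD. A value for the whole gene does not isolate the 2 deleted exons, the genotypes overlapped in it, and the genotype of a library therefore rests on its label. Albumin, the main hepatocyte protein, was listed at 0 in 4 libraries, 3 of them LKO, and between 29901.7 and 30887.5 in the others, so a listed 0 can be a failed estimate. The other 14 hepatocyte markers together reached 27935.5 to 29204.8 in the LKO CD libraries and 24751.1 to 27207.7 in the LKO HFD libraries. The 8 libraries had between 10587 and 10706 genes above 1. Transcripts of the mitochondrial genome took 31.2% and 29.1% of the summed FPKM in the LKO CD libraries and 39.5% and 36.5% in the LKO HFD libraries, which lowers the share left to all other genes. In the f/f libraries the shares were 33.4% and 25.03% on the CD and 33.4% and 38.2% on the HFD.

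Of the 10070 genes, 174 rose and 151 fell on the HFD in the LKO liver at an adjusted p under 0.05, which is 1.73% and 1.5% of them (1.57% and 1.44% of all 11634 genes tested). Among called genes the largest rises were those of the cytochromes P450 Cyp2b9 and Cyp4a14 and the largest falls those of serum amyloid A (Saa1 and Saa2) and the secreted serpin Serpina1e. Changes were more often large downwards: 24 genes rose and 54 fell by at least 1 on the log2 scale. The median size of a called change was 0.70 and the smallest was 0.34. In 323 of the 325 called genes both HFD libraries lay on one side of both CD libraries, a pattern that 23.4% of all members showed upwards and 31.5% downwards. A second rule, an unadjusted p under 0.05 with a log2 fold change of at least 0.5 in size, took 290 genes higher (2.88%) and 305 lower (3.03%).

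Quantile normalization, which gives all libraries the same distribution of values, raised the log2 fold changes of most abundant genes. The median shift was 0.03 for genes with a mean FPKM of 3 to 10 and 0.17 for those of 300 to 1000. It was 0.31 for those of 1000 to 3000 and 0.19 for the 31 above 3000, where shifts ran from -0.36 to 0.58. Without normalization 127 genes rose and 218 fell, so that 36.8% of the calls were upward against 53.5% with it. Selenop, an abundant plasma selenoprotein, shows the size of this shift. Its FPKM were 3516 and 3653 on the CD and 3413 and 3437 on the HFD, and its log2 fold change was 0.47 with normalization (adjusted p = 0.070) and -0.07 without. Falls of abundant genes were larger without normalization, such as -2.11 against -1.81 for Hamp, -1.32 against -1.14 for Cyp3a11 and -0.77 against -0.36 for Scd1. Of the 325 calls, 277 were also made without normalization. The unnormalized value is given below for some genes whose call is lost without it, and for some of the abundant genes that rose. Other calls printed below can be lost too.

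**Figure D1:**
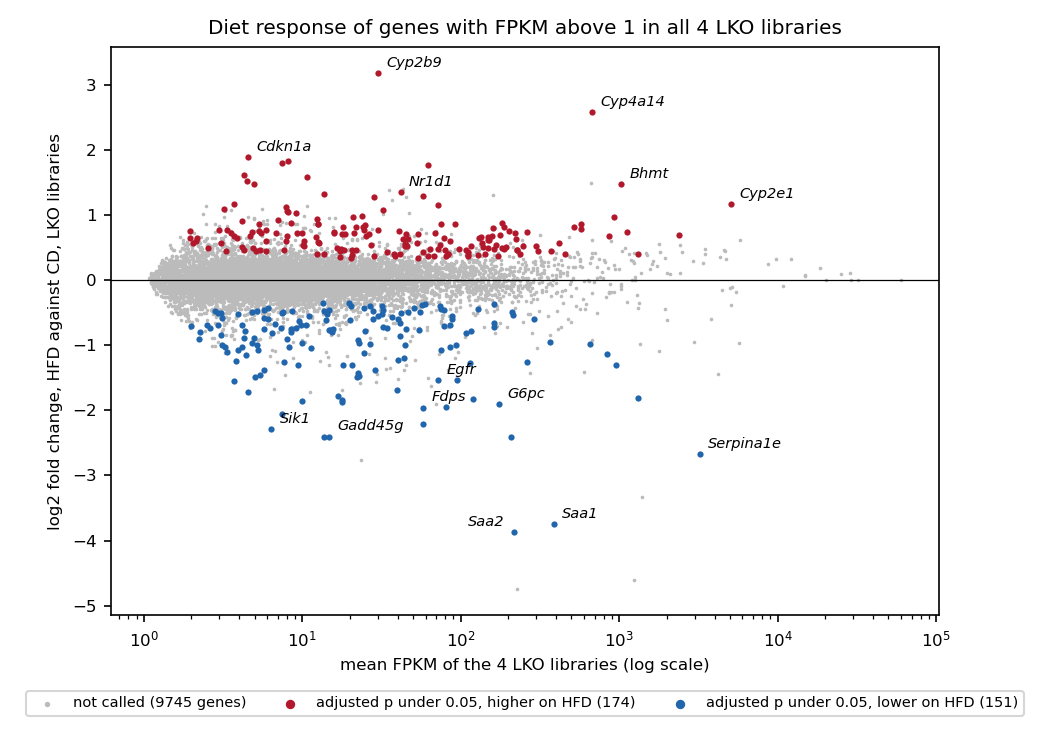
Diet response in the LKO libraries. Each point is 1 of 10070 genes, with the mean FPKM of the 4 LKO libraries on a log axis and the log2 fold change (HFD against CD, quantile-normalized log2(FPKM + 1)) on the other, and the 174 red and 151 blue points passed an adjusted p of 0.05. The called genes cover the range of levels, and the farthest are Cyp2b9 and Cyp4a14 above and Saa1 and Saa2 below.

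The counts depended on every library. With 2 libraries in a group, leaving out 1 leaves a single library, which is then assumed to vary like the other groups. Called genes numbered 48 without the first LKO CD library, 17 without the second, 16 without the first LKO HFD library and 5 without the second. Leaving out an f/f library, which only adds to the estimate of spread, left 58 to 69. In each of these fits all 325 genes kept their direction. They had been picked on the same libraries, and in 323 of them the diets did not overlap. A kept direction was therefore close to given in advance and is no independent support. Fitted on the 4 LKO libraries alone, limma called 0 genes, with 266 higher and 288 lower by the second rule.

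Cyp2b9, a female-predominant cytochrome P450 on chromosome 7 (26173411 to 26210661), had the largest rise. Its FPKM were 6.74 and 4.02 on the CD and 40.4 and 69.9 on the HFD in the LKO libraries. The log2 fold change was 3.18 (SE 0.46, adjusted p = 0.025). Cyp4a14, a PPARα target that hydroxylates the end of fatty acid chains, stood at 167 and 272 on the CD and at 1079 and 1194 on the HFD, a log2 fold change of 2.58 (SE 0.20, adjusted p = 0.0091). In both genes the diets were far apart in the f/f libraries too. Cyp2b9 had 2.75 and 6.62 on the CD and 28.6 and 55.1 on the HFD there. Cyp4a14 had 139 and 156 against 817 and 685. Both belong to families of close paralogs between which reads can be split.

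Cdkn1a and Plin4 rose in the LKO libraries from low levels. Cdkn1a codes for p21, an inhibitor of the cell cycle and a target of p53. It had FPKM of 1.75 and 1.04 on the CD and 6.41 and 8.89 on the HFD (log2 fold change 1.89, SE 0.22, adjusted p = 0.018). Plin4, a coat protein of lipid droplets, had 2.59 and 3.77 against 12.1 and 14.2 (1.83, SE 0.21, adjusted p = 0.018). The groups did not overlap in either gene. In the f/f libraries Cdkn1a had 2.24 and 2.03 on the CD and 2.76 and 1.63 on the HFD, and Plin4 3.65 and 3.97 against 3.57 and 5.79.

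The other 8 of the 12 largest rises were those of Arrdc3, Adgrv1, Abcd2, Tpm2, Serpinb1a, Cyp2a22, Bhmt and Nr1d1. Arrdc3, an arrestin-domain protein, had FPKM of 31.8 and 24.5 on the CD and 81.3 and 110 on the HFD (log2 fold change 1.76, SE 0.26). Abcd2, a peroxisomal transporter of very long-chain fatty acids, had 1.74 and 1.52 against 8.16 and 5.75 (1.61, SE 0.21). Bhmt, which remethylates homocysteine with betaine, was with Cyp4a14 the most abundant of the 12. It had 605 and 656 against 1557 and 1307 (1.47, SE 0.19, adjusted p = 0.019), and without normalization its log2 fold change was 1.18. Nr1d1, which codes for REV-ERBα, had 23.7 and 23.8 on the CD and 55.5 and 64.0 on the HFD (1.35, SE 0.14, adjusted p = 0.018). All 4 genes were also higher in both f/f HFD libraries than in both f/f CD libraries.

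**Figure D2:**
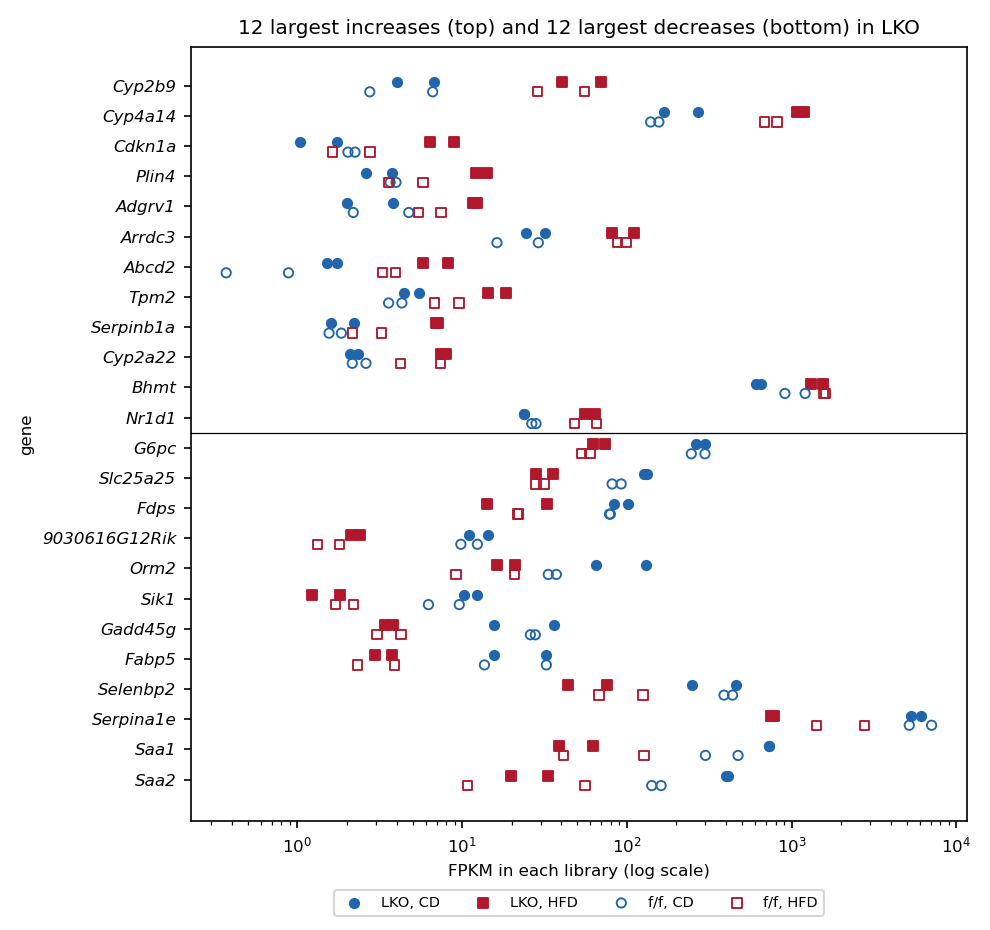
FPKM per library on a log axis for the 12 genes with the largest rise and the 12 with the largest fall among called genes. Circles are CD and squares HFD libraries, filled for LKO and open for f/f. In all 24 genes the filled squares lie on one side of the filled circles.

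The largest falls among called genes were those of the acute-phase proteins Saa2 and Saa1, paralogs that lie next to each other on chromosome 7. Saa1 (46740497 to 46742980, minus strand) had FPKM of 725 and 726 on the CD and 38.9 and 62.0 on the HFD, a log2 fold change of -3.75 (SE 0.51, adjusted p = 0.021). Saa2 had 414 and 402 against 19.7 and 33.2 (-3.87, SE 0.66, adjusted p = 0.036). The CD libraries agreed closely in both genes and lay more than an order of magnitude above the HFD libraries. In the f/f libraries the CD values were lower and more uneven, at 473 and 300 for Saa1 and 142 and 161 for Saa2. Serpina1e, a male-biased member of the α1-antitrypsin cluster, had 5276 and 6070 on the CD and 779 and 751 on the HFD (-2.68, SE 0.34, adjusted p = 0.019).

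Among the other large or precise falls were those of G6pc, Slc25a25, Sik1, Dusp1, Gadd45g and Got1. G6pc, the catalytic subunit of glucose-6-phosphatase and the last step of glucose output, had FPKM of 262 and 297 on the CD and 73.8 and 61.9 on the HFD (log2 fold change -1.91, SE 0.14, adjusted p = 0.0068). Slc25a25, a mitochondrial ATP-Mg/phosphate carrier, had 127 and 132 against 28.0 and 35.4 (-1.95, SE 0.11, adjusted p = 0.0043). Sik1, a kinase that restrains CREB coactivators, had 10.2 and 12.3 against 1.22 and 1.81 (-2.29, SE 0.21, adjusted p = 0.013). In all 3 genes the HFD libraries were close to each other and far under the CD libraries, and each also fell in the f/f libraries, by log2 fold changes of -2.18, -1.46 and -1.56. Dusp1, a phosphatase of MAP kinases, had 28.2 and 28.8 against 7.10 and 7.02 (-1.84, SE 0.13, adjusted p = 0.0068). Gadd45g, a stress-induced growth regulator, had 15.5 and 36.2 against 3.79 and 3.42 (-2.40, SE 0.34, adjusted p = 0.025). Pck1, the other gene of glucose output that fasting induces, had 746 and 1058 against 478 and 599, which did not pass (-0.51, SE 0.23, adjusted p = 0.26). Got1, the cytosolic aspartate aminotransferase, had 180 and 200 against 48.0 and 52.6 and fell by 1.83 on the log2 scale (SE 0.19, adjusted p = 0.016).

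Promoter sequence was read for the called genes to show where 3 known binding motifs stand. RefSeq windows on GRCm38.p6 were found for 7834 of the 10070 genes, and the 250 bases before each start were searched on both strands. The palindrome TGACGTCA, the cAMP response element, stood in 2.74% of the 146 windows of falling genes, 2.22% of the 180 of rising genes, 2.63% of those of members and 1.55% of all 32851 windows. The falling genes with it were Dusp1, Ints7, Meg3 and Slc25a25. The ROR motif TAGGTCA, which reads TGACCTA on the other strand, stood in 3.42% of the windows of falling and 3.33% of those of rising genes, against 2.23% of all windows and 1.81% of those of members. The falling genes with it were C6, Cyp3a11, Dhcr7, G6pc and Gjb2, and the rising ones Apoh, Bhmt, Cdip1, Mpc1, Sult1b1 and Sult2a8. The E-box CACGTG, the site of clock factors, stood in 4.79% of the windows of falling and 8.33% of those of rising genes, against 8.65% of those of members and 6.02% of all windows. These shares rest on 4 to 15 windows each and no test was made on them. A match is a run of letters and not a measured binding event. The windows of 4 genes described above are shown, Slc25a25 and Dusp1 for the cAMP response element and G6pc and Bhmt for the ROR motif, 5′ to 3′ on the strand of the gene with the matching letters in capitals. They are chr2:32424067-32424316 (minus strand, 1 of 3 starts of the gene) for Slc25a25, chr17:26508473-26508722 (minus strand) for Dusp1, chr11:101367466-101367715 (plus strand) for G6pc and chr13:93637759-93638008 (minus strand) for Bhmt.
Slc25a25: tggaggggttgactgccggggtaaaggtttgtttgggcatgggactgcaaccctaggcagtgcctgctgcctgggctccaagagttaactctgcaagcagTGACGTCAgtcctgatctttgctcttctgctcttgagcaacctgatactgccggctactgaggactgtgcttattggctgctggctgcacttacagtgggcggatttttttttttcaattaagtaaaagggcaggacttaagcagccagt
Dusp1: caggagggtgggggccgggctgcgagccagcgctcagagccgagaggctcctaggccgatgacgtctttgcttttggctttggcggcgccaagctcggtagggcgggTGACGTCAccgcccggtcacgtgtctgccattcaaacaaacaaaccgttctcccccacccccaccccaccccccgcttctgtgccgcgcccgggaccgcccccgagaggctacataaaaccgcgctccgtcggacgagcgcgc
G6pc: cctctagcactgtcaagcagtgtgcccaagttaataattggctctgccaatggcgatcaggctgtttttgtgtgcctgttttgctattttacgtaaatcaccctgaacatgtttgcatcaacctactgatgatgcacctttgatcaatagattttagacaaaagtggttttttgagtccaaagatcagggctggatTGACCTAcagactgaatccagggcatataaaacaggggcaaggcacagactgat
Bhmt: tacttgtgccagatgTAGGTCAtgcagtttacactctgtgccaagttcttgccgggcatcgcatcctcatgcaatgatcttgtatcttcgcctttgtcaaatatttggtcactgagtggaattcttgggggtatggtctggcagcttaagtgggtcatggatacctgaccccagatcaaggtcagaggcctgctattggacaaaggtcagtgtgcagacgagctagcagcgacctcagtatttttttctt

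The cAMP response element ends 143 bases before the start of Slc25a25 and 136 bases before that of Dusp1. The ROR motif of G6pc stands close to the start, from 54 to 48 bases before it and on the other strand, and that of Bhmt stands at the far end of the window, from 235 to 229 bases before the start.

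Genes that make cholesterol were lower on the HFD. Of 24 members of the list of cholesterol synthesis and uptake, 0 rose and 6 fell, and 22 had a log2 fold change under 0. The list's median was -0.54, against 0.01 over all members. Among the 6 were Fdps, Cyp51, Dhcr7, Tm7sf2 and Lss. Fdps makes farnesyl diphosphate, the branch point to sterols, and had FPKM of 83.1 and 101 on the CD and 32.7 and 14.2 on the HFD (log2 fold change -1.96, SE 0.33, adjusted p = 0.036). Cyp51, the lanosterol demethylase, named with its values known, had 32.3 and 34.2 against 14.9 and 7.83 (-1.49, SE 0.26, adjusted p = 0.037). Dhcr7, the last enzyme before cholesterol, had 31.1 and 37.2 against 16.6 and 13.2. In each of these genes the HFD libraries lay under both CD libraries. Hmgcs1, an early enzyme of the same pathway, was an exception that was also named with its values known. It had 44.9 and 46.3 on the CD and 97.4 and 53.7 on the HFD (0.72, adjusted p = 0.19).

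Genes of fatty acid synthesis were lower too. Of 20 members of the lipogenesis list 0 rose and 7 fell, with a median of -0.51 and 3 members above 0. Fasn, the fatty acid synthase, had FPKM of 67.7 and 54.6 on the CD and 21.8 and 14.1 on the HFD (log2 fold change -1.70, SE 0.21, adjusted p = 0.019). Acly, which makes cytosolic acetyl-CoA, had 43.3 and 41.0 against 16.2 and 14.4 (-1.37, SE 0.12, adjusted p = 0.0095). The diets were well separated in both. Elovl6, which lengthens palmitate, and Srebf1, which codes for SREBP-1, were among the other 5 and were named with their values known. Elovl6 had 13.9 and 18.5 against 4.82 and 2.71 (-1.85, adjusted p = 0.038). Srebf1 had 59.6 and 54.7 against 34.3 and 30.9 (-0.74, SE 0.13, adjusted p = 0.040). The fold changes of the rest, Acaca, Acss2 and Tkfc, ran from -1.03 to -0.79 on the log2 scale. Scd1, the desaturase of stearate, was spread within the HFD group, at 1562 and 559, and had 1676 and 1516 on the CD (-0.36, adjusted p = 0.82).

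The LKO HFD libraries differed from each other in these 2 pathways. The second was under the first in 23 of the 24 cholesterol genes and in 20 of the 20 lipogenesis genes, against 41.2% of all members. Without the first HFD library the medians were -0.81 for the cholesterol and -0.88 for the lipogenesis list, and without the second they were -0.39 and -0.30. The direction of both lists was downward in each case. In the f/f libraries the medians were -0.72 and -0.58.

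Genes of mitochondrial fatty acid oxidation were higher on the HFD. Of 24 members of the list for the carnitine shuttle and mitochondrial β-oxidation 8 rose and 0 fell, 22 had a log2 fold change above 0, and the median was 0.38. Without normalization the median was 0.28 and 4 members rose. Etfdh, Acadl and Hadh were among these, and the other rises named here did not all pass without it. Acadm, the medium-chain acyl-CoA dehydrogenase, named with its values known, had FPKM of 173 and 174 on the CD and 242 and 295 on the HFD (log2 fold change 0.73, SE 0.11, adjusted p = 0.030). Etfdh, which passes electrons from these dehydrogenases to ubiquinone, had 121 and 129 against 174 and 183 (0.61, SE 0.08, adjusted p = 0.019). Acadl, the long-chain enzyme, had 114 and 122 against 155 and 164, and Hadh, the third step of the spiral, 165 and 156 against 205 and 223. Etfa and Bdh1 also rose, by 0.40 and 0.39. In all 8 genes the HFD libraries lay above the CD libraries, by log2 fold changes under 1. The subunits of the respiratory chain, 73 members coded in the nucleus, had 0 called in either direction by both rules, and a median of 0.09 that was -0.00 without normalization.

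Of the 22 members for peroxisomal and microsomal oxidation 3 rose, Cyp4a14, Abcd2 and Vnn1, and 0 fell, with a median of 0.22 (0.11 without normalization). Vnn1, a pantetheinase and PPARα target, had FPKM of 28.9 and 38.9 on the CD and 69.2 and 92.9 on the HFD (log2 fold change 1.28, SE 0.16, adjusted p = 0.019). Cyp4a10, the paralog of Cyp4a14, had 257 and 524 against 843 and 1014 and did not pass (1.49, SE 0.31, adjusted p = 0.058). The list's median was -0.03 without the first LKO CD library and 0.45 without the second.

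The receptors that sense fat showed no called change. Of 18 members of the list of PPAR and RXR receptors and their coregulators 0 passed either rule, with a median of 0.01, and 1.73% and 1.5% of all members passed the first. Pparg had FPKM of 4.55 and 4.53 on the CD and 5.86 and 6.38 on the HFD (log2 fold change 0.40, SE 0.08, adjusted p = 0.058). The diets did not overlap in it. Ppara had 43.6 and 55.5 against 41.9 and 46.2 (-0.12, SE 0.13, adjusted p = 0.67). Fgf21, a fasting hormone under PPARα, had 4.70 and 3.5997 against 5.14 and 3.05 (0.00, SE 0.24).

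Genes of fat uptake and storage moved one by one. Of the 20 for uptake, binding and activation Fabp2 and Acot13 rose and Fabp5 and Acsl4 fell, and Acot13 did not pass without normalization (0.27, adjusted p = 0.068). Cd36, a fatty acid translocase, had FPKM of 28.9 and 19.5 on the CD and 63.7 and 60.1 on the HFD (log2 fold change 1.40, SE 0.28, adjusted p = 0.051). It was separated between the diets and just missed the threshold. Fabp2, the intestinal-type binding protein, had 54.3 and 55.3 against 100 and 91.5 (0.86, SE 0.13, adjusted p = 0.026). Fabp5, an epidermal-type binding protein with several near-identical copies in the genome, had 15.6 and 32.3 against 3.73 and 2.98 (-2.40, SE 0.46, adjusted p = 0.047). Of 23 droplet and triglyceride genes Plin4 and Lpin1 rose and 0 fell, with a median of 0.02. Lpin1, a phosphatidate phosphatase, had 17.5 and 18.8 against 27.6 and 34.2 (0.76, SE 0.12, adjusted p = 0.030). Plin2, the main droplet coat of liver, had 306 and 456 against 240 and 246 (-0.48, adjusted p = 0.23).

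**Figure D3:**
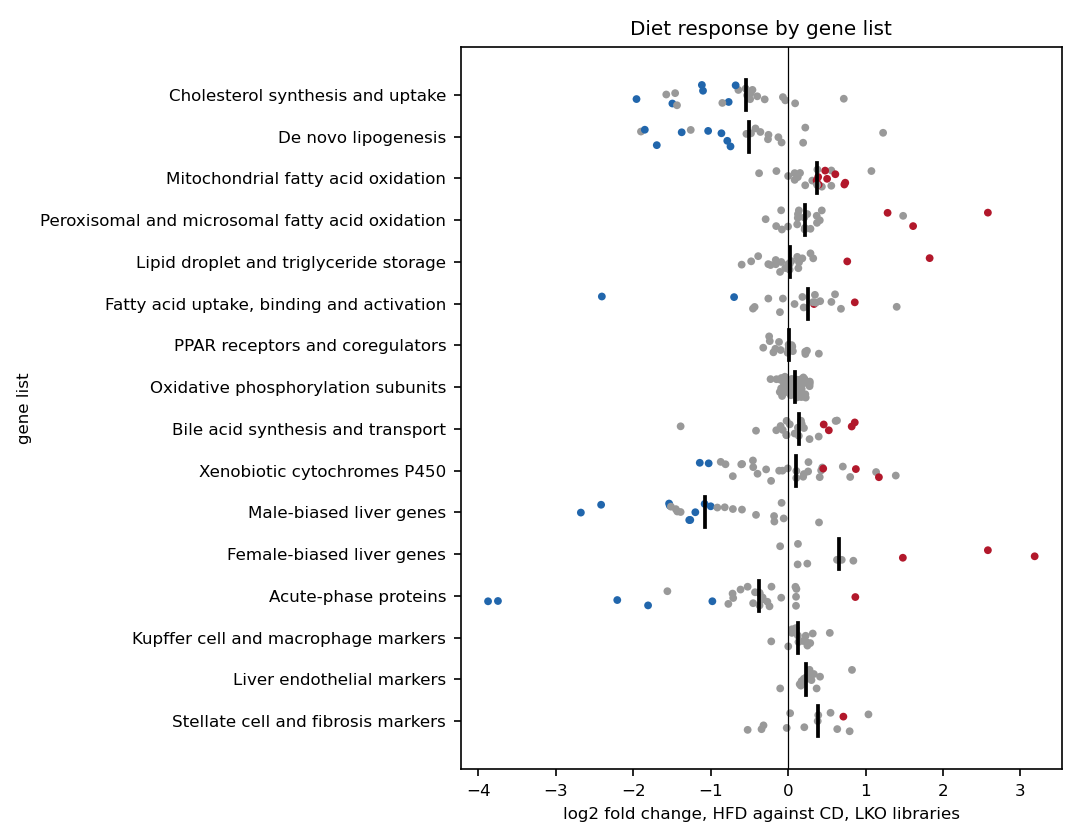
Log2 fold change (HFD against CD, LKO libraries) of every member of 16 gene lists, 1 point per gene, with the median of each list as a black bar. Red points rose and blue points fell at an adjusted p under 0.05, and grey points did not pass. The cholesterol, lipogenesis, male-biased and acute-phase lists lie to the left of 0 with medians of -0.54, -0.51, -1.08 and -0.37, and the mitochondrial oxidation and female-biased lists to the right with 0.38 and 0.66.

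Genes with a sex bias in liver shifted together. Mouse liver expresses many genes at different levels in males and females under the sex-specific pattern of growth hormone, and all mice here were male. Of 23 members of the male-biased list 0 rose and 9 fell, 21 had both HFD libraries under both CD libraries, and the median was -1.08. By the second rule 15 fell. The median stayed between -1.25 and -0.92 when any 1 library was left out. The 9 were Serpina1e, Selenbp2, Egfr, Cyp4a12a, C8b, Nudt7, Lifr, C6 and Hsd3b5. Egfr, the receptor for epidermal growth factor, on chromosome 11 (16752203 to 16918158), had the smallest p of these. Its FPKM were 108 and 110 on the CD and 33.3 and 37.6 on the HFD (log2 fold change -1.54, SE 0.08, adjusted p = 0.0043). Selenbp2, a selenium-binding protein, had 249 and 460 against 44.2 and 75.7 (-2.41, SE 0.40, adjusted p = 0.035). Cyp4a12a, the male fatty acid hydroxylase, named with its values known, had 114 and 173 against 36.5 and 57.2 (-1.53, SE 0.25, adjusted p = 0.032). C8b, a complement component, and Nudt7, a peroxisomal CoA hydrolase, fell by 1.28 and 1.26.

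Of 10 members of the female-biased list 3 rose, Cyp2b9, Cyp4a14 and Cyp2a22, 0 fell, and 9 had a log2 fold change above 0. Cyp2a22 had FPKM of 2.33 and 2.10 on the CD and 8.01 and 7.46 on the HFD (1.48, SE 0.22, adjusted p = 0.026). The list's median was 0.66, with 0.41 without the first LKO HFD library. The 15 members for growth hormone and IGF signalling had 0 called. The f/f medians of the 2 biased lists were -0.70 and 0.64. The major urinary proteins, male-biased and nearly identical in sequence, had 24 members. Of these 22 were under 0, with a median of -0.93, and 0 passed the adjusted threshold while 12 had an unadjusted p under 0.05. Their spread within a diet was wide: Mup16, named with its values known, had 4707 and 176 on the CD and 22.2 and 52.9 on the HFD.

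Acute-phase proteins, which hepatocytes secrete under inflammatory signals, were lower on the HFD. Of 27 members 1 rose and 5 fell, 22 had both HFD libraries under both CD libraries, and the median was -0.37 (-0.54 without normalization, -0.59 without the second LKO HFD library, -0.07 in f/f). The 5 were Saa1, Saa2, Orm2, Orm1 and Hamp. Hamp, the iron hormone hepcidin, had FPKM of 2627 and 1688 on the CD and 438 and 539 on the HFD (log2 fold change -1.81, SE 0.28, adjusted p = 0.030). Orm2, an α1-acid glycoprotein, had 130 and 65.3 against 16.3 and 20.8 (-2.21, SE 0.42, adjusted p = 0.047). Its paralog Orm1 had 989 and 794 against 419 and 399. The gene that rose was Il6ra, the receptor for the cytokine that induces these proteins. It had 8.18 and 9.39 against 15.0 and 17.8 (0.87, SE 0.12, adjusted p = 0.022). The haptoglobin gene Hp and the hemopexin gene Hpx, named with their values known, had 2633 and 2365 against 1326 and 1449, and 2914 and 2449 against 1310 and 1338, with adjusted p of 0.074 and 0.067.

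Among bile acid genes 4 of 23 rose and 0 fell. Slc10a1, the sodium-dependent importer of bile salts, had FPKM of 435 and 458 on the CD and 753 and 639 on the HFD (log2 fold change 0.86, SE 0.11, adjusted p = 0.019). Slco1b2, the sodium-independent importer, had 423 and 385 against 619 and 636 (0.82, SE 0.09, adjusted p = 0.018). Without normalization they rose by 0.63 and 0.64. The others were Acox2, which shortens the bile acid side chain, at 0.53, and Hsd3b7, a dehydrogenase of the sterol ring, at 0.46, and neither passed without normalization (adjusted p = 0.068 for both). Cyp7a1, the rate-limiting enzyme, had 30.3 and 37.8 against 46.2 and 31.1 (0.21, SE 0.26, adjusted p = 0.70).

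Drug-metabolizing P450 genes moved in both directions, with 3 of 31 members higher and 2 lower and a median of 0.11. Without normalization only 1, Cyp2e1, was higher and 4 were lower, and the median was -0.09. Cyp2e1, the ethanol-inducible enzyme, had FPKM of 3875 and 4102 on the CD and 5512 and 6770 on the HFD. Its log2 fold change was 1.17 (SE 0.10, adjusted p = 0.0095) and 0.62 without normalization (adjusted p = 0.043). Nr1i3, which codes for the receptor CAR, named with its values known, had 121 and 145 against 216 and 246 (0.88, SE 0.17, adjusted p = 0.047). Cyp2b10, the usual target of CAR, had 6.13 and 5.70 against 3.03 and 1.78 and fell by 1.03 (SE 0.17, adjusted p = 0.036). Cyp3a11 had 1146 and 1234 against 522 and 431 (-1.14, SE 0.19, adjusted p = 0.035). Cyp2j5 had 279 and 273 against 328 and 342, at 0.45, and did not pass without normalization (0.28, adjusted p = 0.14).

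Lists of other liver work each held a small number of called genes, where 1.73% of all members rose and 1.5% fell. Apart from cell division, each list below had a larger share called than all members. The lists were chosen with earlier results of these data known. Of 33 glutathione and NRF2 genes Gstt1 rose and Gstm3 and Gstp1 fell. Gstp1, a male-predominant transferase, had FPKM of 1277 and 1535 on the CD and 512 and 482 on the HFD (log2 fold change -1.30, SE 0.17, adjusted p = 0.019). Of 26 genes of glucose production and use Pdha1 rose and G6pc fell. Of 35 genes of amino acid breakdown and the urea cycle Bhmt rose and Got1, Sds and Asl fell. Sds, serine dehydratase, had 128 and 126 against 54.2 and 65.8 (-1.001, SE 0.10, adjusted p = 0.017). Of 20 unfolded protein genes Sdf2l1 and Pdia6 fell and 0 rose, and of 19 chaperones Dnaja1 rose and 0 fell. Of 18 clock genes Nr1d1 and Hlf rose and Bhlhe40, a transcriptional repressor, fell. Bhlhe40 had 60.9 and 53.1 against 22.8 and 23.2 (-1.23, SE 0.21, adjusted p = 0.036). Among 20 lipoprotein genes Apoh and Scarb1 rose and Apom fell, and Apoh, at 1346 and 1212 against 1324 and 1413, was at 0.41 with normalization and 0.10 without (adjusted p = 0.52). Scarb1, Dnaja1 and Gstt1 did not pass without normalization either, with adjusted p of 0.094, 0.082 and 0.091. The lists of cell division, with 7 members, and of retinoid metabolism, with 17, had 0 and 2 called, the latter Rdh9 upwards and Rdh11 downwards. Of 13 growth arrest genes Cdkn1a rose and Gadd45g fell, of 19 secreted metabolic regulators Angptl8 fell and of 8 immediate early genes Dusp1 fell. In all, 243 of the 325 called genes, 138 higher and 105 lower, were in none of the 34 lists.

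Markers of other cells of the liver were read in the same libraries. In whole liver a change in the number of cells of a type cannot be told apart from a change of RNA per cell. Of 15 macrophage and Kupffer cell markers 0 were called, 14 lay above 0 and the median was 0.13. It was -0.02 without the first LKO HFD library, 0.32 without the second and -0.36 in f/f. Their summed FPKM was 229 and 203 on the CD and 278 and 208 on the HFD. Of 8 markers of recruited leukocytes and of 15 endothelial markers 0 were called, and the sums were 82.0 and 86.9 against 100 and 92.5, and 99.8 and 127 against 153 and 121. Of 13 stellate cell and matrix markers 1 rose, Bgn, a small proteoglycan of the matrix, with FPKM of 22.3 and 17.7 against 34.9 and 30.3 (log2 fold change 0.71, SE 0.14, adjusted p = 0.047). The stellate sum was 108 and 88.7 on the CD and 167 and 135 on the HFD, and the median of the list was 0.38, between 0.20 and 0.50 when any 1 library was left out. The first LKO HFD library was above the second in all 15 macrophage and all 15 endothelial markers. Of the adipocyte markers, Adipoq, Plin1, Retn and Lep were each under 0.1 in all 4 LKO libraries. Cfd, which was not a member, had 2.76 and 0.54 on the CD and 5.45 and 5.29 on the HFD. Fabp4 had 7.05 and 7.30 against 10.4 and 8.88 (log2 fold change 0.41, adjusted p = 0.095). Of the 5 members of that list 0 were called and 2 lay above 0, and 0 of 6 cholangiocyte markers were called. Among the 14 hepatocyte markers that were members Cyp2e1 and Apoh rose, 10 had both HFD libraries under both CD libraries in FPKM, and the median was -0.00. Without normalization 1 rose and 3 fell, with a median of -0.26. The erythroid markers had a sum of 247 and 502 against 198 and 121, and of its 5 members Alas2 fell. Whether these cells had a part in any change above was not tested.

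The f/f libraries give the diet response with hepatocyte RORα present, from libraries that are not shared. Both comparisons came from the same fit, with a shared estimate of spread for each gene, so their p-values are not independent. At the adjusted threshold 67 genes were higher (0.665%) and 74 lower (0.735%) there. Of the 325 genes called in LKO, 307 had the same sign in f/f, 256 had an unadjusted p under 0.05 and 81 were called, which is 24.9% of the LKO calls and 57.4% of the 141 f/f calls. Across the 10070 genes the log2 fold changes of the genotypes had a Pearson r of 0.60 and a Spearman rho of 0.46, which describes genes that are not independent replicates. The test of the difference between the responses called 0 genes among the 10070. The smallest adjusted p was 0.11 and 873 genes (8.67%) had an unadjusted p under 0.05. A larger number of calls in LKO is thus not a shown difference, and no gene below passed the adjusted test of the difference.

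**Figure D4:**
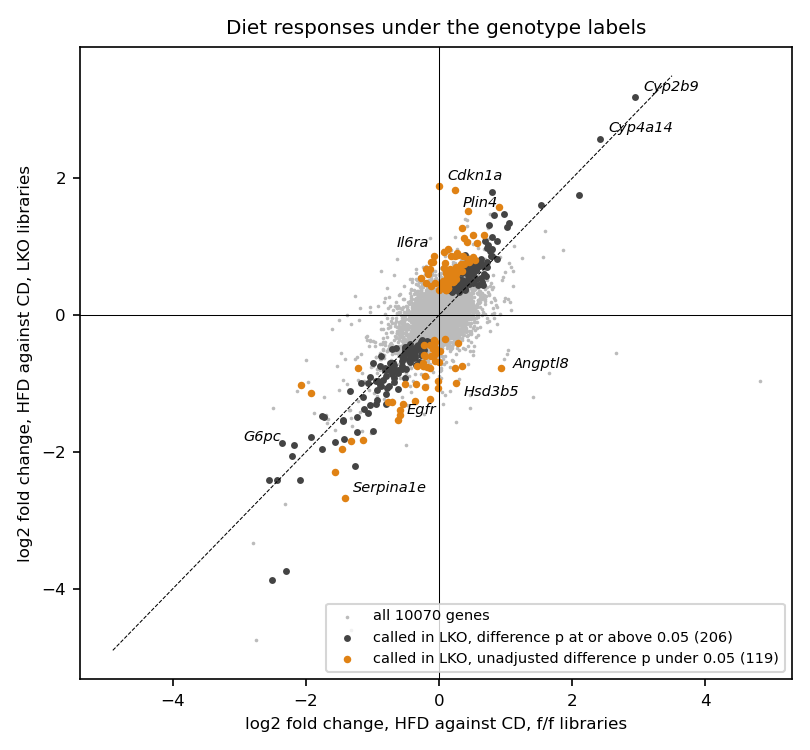
Log2 fold change (HFD against CD) in the f/f libraries on the horizontal axis and in the LKO libraries on the vertical axis for 10070 genes, with equality as a dashed line. Of the 325 genes called in LKO, 206 dark points had a difference p of 0.05 or more and 119 orange points an unadjusted difference p under 0.05. Angptl8 and Hsd3b5 are orange points on opposite sides of 0 in the 2 genotypes.

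Angptl8, an insulin-induced inhibitor of lipoprotein lipase on chromosome 9 (21835510 to 21837347), had the smallest p. In LKO it had FPKM of 33.1 and 30.3 on the CD and 17.5 and 17.9 on the HFD, and fell by 0.78 on the log2 scale (SE 0.13, adjusted p = 0.036). In f/f it had 13.03 and 9.56 against 20.995 and 22.4, and rose by 0.93 (adjusted p = 0.038). The response thus ran in opposite directions, and the difference between the responses was -1.70 (SE 0.19, adjusted p = 0.11 in limma). The CD libraries of the genotypes were farther apart than the HFD libraries.

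Egfr fell further in LKO than in f/f, where it had 98.3 and 104 on the CD and 61.4 and 67.4 on the HFD (log2 fold change -0.62 against -1.54, difference -0.92, SE 0.12, adjusted p = 0.23). Cdkn1a and Plin4 had log2 fold changes of 0.00 and 0.23 in f/f, and differences of 1.88 (SE 0.31, adjusted p = 0.35) and 1.59 (SE 0.30, adjusted p = 0.44). Il6ra had 18.6 and 18.7 on the CD and 19.2 and 15.7 on the HFD in f/f (difference 0.94, SE 0.17, adjusted p = 0.40). Srebf1 and Hsd3b5, the male-biased 3β-hydroxysteroid dehydrogenase, were named with their values known. Srebf1 had a log2 fold change of 0.35 in f/f against -0.74 in LKO (adjusted p of the difference = 0.36). Hsd3b5 had 59.5 and 61.7 against 23.8 and 34.3 in LKO and 70.8 and 60.5 against 84.1 and 66.5 in f/f (adjusted p of the difference = 0.49). Cebpa, a master regulator of hepatocyte genes, had 100 and 93.7 against 71.6 and 76.3 in LKO, which did not pass (-0.28, adjusted p = 0.11), and 73.6 and 65.9 against 104 and 98.5 in f/f (0.59, adjusted p = 0.037, and 0.23 for the difference). Cd36 had 15.3 and 19.2 against 17.0 and 29.3 in f/f (0.38 against 1.40, adjusted p of the difference = 0.58). Each of these 9 genes had an unadjusted p of the difference under 0.05.

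**Figure D5:**
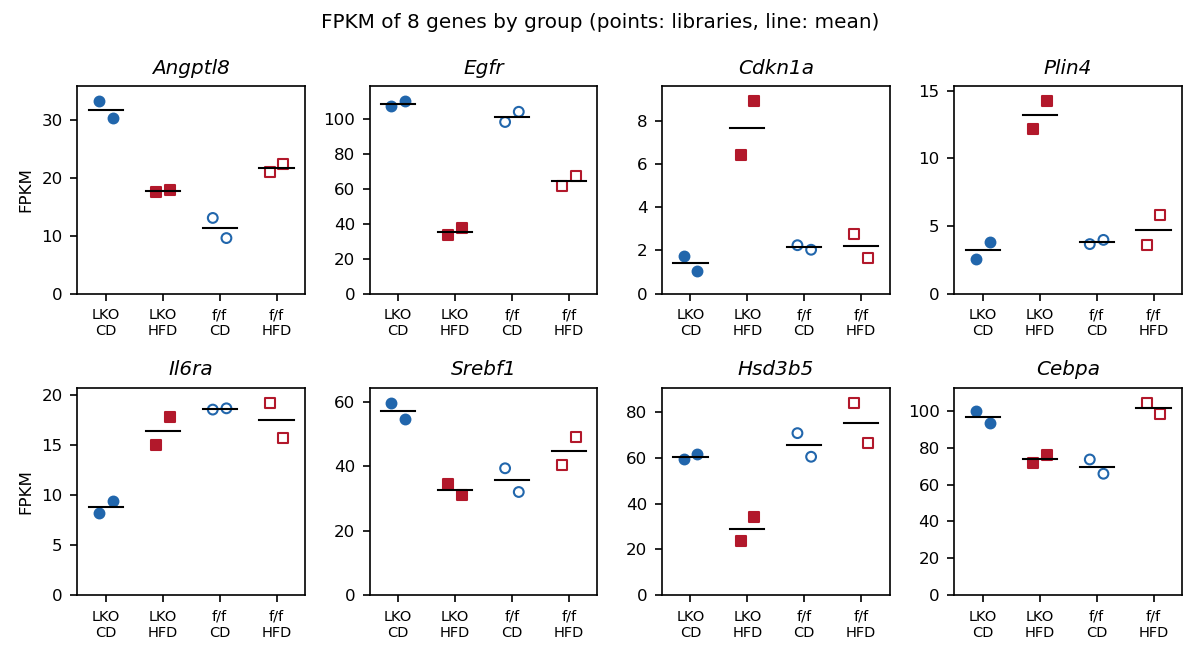
FPKM per library of 8 genes in the 4 groups (CD and HFD, f/f and LKO), 1 point per library with a line at the mean of each pair. Angptl8, Srebf1, Hsd3b5 and Cebpa have a lower mean on the HFD than on the CD in LKO and a higher one in f/f, Cdkn1a, Plin4 and Il6ra are higher on the HFD in LKO, and Egfr is lower on the HFD in both genotypes.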

How the data were processed

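Liver RNA of both genotypes on either diet was sequenced as poly(A)-selected, paired-end libraries, 2 per group. Per the labels and the study's methods, the authors trimmed reads with cutadapt (1.0), aligned them to GRCm38 with TopHat2 (2.0.7) and quantified genes with Cufflinks. The values they deposited are FPKM on a linear scale, for 38283 genes. Gene symbols and positions were taken from GENCODE M21 by Ensembl identifier (36425 genes matched). FPKM carry no read counts, so the depth behind a value is unknown here, tests on counts were not run and no counting interval is given. The columns held per-library values, and 0 of them were left unused.

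For the fit, genes with FPKM above 1 in at least 1 of the 8 libraries (11634) were kept, 1 was added, the log2 values were quantile normalized and limma (3.58.1, R 4.3.3) was fitted with 1 mean per group and a mean-variance trend on all 8 libraries, which gave 4 residual degrees of freedom and 2.80 more from moderation. Log2 fold changes are on the log2(FPKM + 1) scale and understate the change of genes with low values. Tests are two-sided, adjusted p-values are Benjamini-Hochberg over all 11634 genes, and only the 10070 genes above 1 in all 4 LKO libraries are described. Of all genes tested, 183 rose (1.57%) and 168 fell (1.44%). Of the 1564 tested genes outside the 10070, 26 were called. An exact permutation test of 2 against 2 libraries cannot go below p = 0.33 and was not used. Labels do not say whether libraries were prepared together.

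The fit was tested on simulated data with the gene means and spread of these libraries. In these data 200 of 11634 genes were changed in the LKO diet comparison. The fit recovered 85% of changes of 1 and 97% of changes of 2 on the log2 scale. Of its 190 calls there, 8 were on unchanged genes. Whether these rates hold for the deposited libraries, where genes of a pathway differed together between libraries of a group, was not tested. The genes and the 34 lists were chosen with earlier results of these data known, and counts over lists are descriptions. Named genes were the 12 largest called changes in each direction, the 4 smallest p in each list, the 8 smallest p of the difference and 12 genes of the study's theme, and others are marked where they appear. Replicate numbers name libraries: deviations of same-numbered libraries correlated at 0.087 in LKO and 0.064 in f/f, so they were not paired. Promoter windows are those of RefSeq on GRCm38.p6. Values of some genes are not reported here.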

Additional observations from a re-analysis of the deposited data

Results flagged for a closer look

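In 13 genes named here the diet moved both LKO libraries one way and both f/f libraries the other way in FPKM as deposited. The share of all members with such an opposite pattern was not counted, so the 13 are not shown to be many. In LKO alone 23.4% of members were separated upwards and 31.5% downwards. After normalization the f/f responses of Aldh1a1 (0.06) and Ndufv2 (0.01) had the same sign as those in LKO (0.62 and 0.21). The difference of the 2 responses (LKO minus f/f, log2 scale) was tested in limma, and its adjusted p was above 0.05 in each. For Angptl8 the difference was -1.70 (adjusted p = 0.11), for Cebpa -0.87 (adjusted p = 0.23) and for Timm17b, a subunit of the mitochondrial import channel, -1.01 (adjusted p = 0.23). Timm17b had FPKM of 18.9 and 19.3 on the CD and 9.84 and 11.2 on the HFD in LKO, and 12.9 and 14.4 against 14.9 and 16.9 in f/f. For Ss18l2 the difference was -0.68 (adjusted p = 0.24) and for Socs3, a feedback inhibitor of cytokine signalling, -0.84 (adjusted p = 0.56). In the other direction the mitochondrial ribosomal RNA mt-Rnr2 differed by 0.90 (adjusted p = 0.23) and the elongation factor Ell2 by 0.81 (adjusted p = 0.26). Dnaja1 differed by 0.53 (adjusted p = 0.52), Aldh1a1 by 0.56 (adjusted p = 0.57) and Ndufv2 by 0.20 (adjusted p = 0.65). The macrophage markers C1qb and Cd163 and the leukocyte marker Cd53 differed by 0.56, 0.55 and 0.57 (adjusted p = 0.56, 0.59 and 0.56). The cause was not tested.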

How the results depend on the processing

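Against 325 called genes (174 higher, 151 lower), limiting the fit to genes above 1 in all 8 libraries called 570 (281 and 289), and to those above 1 in all 4 LKO libraries 555 (274 and 281). Without a filter 94 were called (56 and 38), without the mean-variance trend 194 (107 and 87) and with the 4 LKO libraries alone 0 (0 and 0). A fit with the replicate number as a replicate block called 209 (115 and 94), of which 182 were shared. Whether same-numbered libraries were prepared together is not known. Leaving out 1 library called 5 to 69 (1 to 38 higher, 4 to 31 lower), and the test of the difference then called 0 to 3 genes (1 without the first f/f CD library, 3 without the second and 3 without the first f/f HFD library) with 578 to 949 at an unadjusted p under 0.05. Leaving out mitochondrial transcripts without normalization, an alternative chosen after seeing the data, called 212 genes, of which 61 were lower and 71.2% higher, and gave a median log2 fold change over members of 0.13, against 0.01. It took 582 genes higher by the second rule and 562 by the unadjusted difference. Centring on the median called 295 and a pseudocount of 0.1 called 379. The cause of these shifts was not tested. Some of the alternatives also changed the number of genes or libraries in the fit. The called genes kept their direction in every one of the 18 alternatives in which they were tested. In those that kept 2 libraries in each fitted group, 318 or more had an unadjusted limma p under 0.05. These genes were picked in the main fit on the same libraries, so this is no independent support. The replicate block moved 25 of the 159 named genes out of the calls and 6 into them. With 2 pools per group and FPKM only, small changes of rare transcripts could not be resolved.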

Other observations

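Some changes in the LKO libraries were large and did not pass the adjusted threshold, and the genes named here were chosen with their values known. Thrsp, a lipogenic nuclear protein, had FPKM of 114 and 109 on the CD and 33.3 and 23.5 on the HFD (log2 fold change -1.90, limma adjusted p = 0.062). Cyp2c38 had 24.2 and 15.0 against 57.2 and 44.5 (1.39, adjusted p = 0.058). The urinary protein gene Mup13 had 868 and 30.2 on the CD and 3.80 and 5.97 on the HFD, and Mup19 had 4402 and 512 against 25.2 and 643, so that the CD libraries were far from each other. Bcl6, a transcriptional repressor, had 11.1 and 9.59 against 24.0 and 7.49 in LKO and 10.03 and 26.1 against 24.9 and 2.71 in f/f. Of the 15 members coded by the mitochondrial genome 12 had a log2 fold change above 0 in LKO, with a median of 0.18, and the 2 ribosomal RNAs mt-Rnr1 and mt-Rnr2 were called. Of the 1564 genes tested outside the 10070, 4 had an adjusted p under 0.05 for the difference between the genotypes.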
